A study of Mus musculus with 10 samples.

Results

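The 10 genes described here encode the opioid peptide precursors (Penk, Pdyn, Pnoc), the tachykinin precursor Tac1, the opioid receptors (Oprm1, Oprd1, Oprk1, Oprl1) and the tachykinin receptors Tacr1 and Tacr3. They were chosen by name for their place in these signaling systems, and all 10 were found among the 29883 genes of the count table. Expression was measured by poly-A RNA sequencing of the nucleus accumbens (NAc), the ventral part of the striatum, in 5 C57BL/6J (B6) and 5 DBA/2J (D2) mice. All 10 mice were ethanol-naive males, 9 weeks old at death, from the Jackson Laboratory, with no treatment and no engineered allele named for either strain, and each library came from 1 mouse. The comparison of the strains asks which transcripts differ at baseline between inbred lines that are known to differ in ethanol drinking. Throughout, D2 is the strain, and dopamine receptors are given by their gene names.

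Opioid and tachykinin peptides are cut from larger precursor proteins in secretory granules and act on G protein-coupled receptors. In the striatum, enkephalin from Penk is the peptide of the projection neurons that carry the dopamine receptor Drd2 (the indirect pathway), whereas dynorphin from Pdyn and substance P from Tac1 mark the neurons that carry Drd1 (the direct pathway). Enkephalins act mainly on the mu and delta receptors, dynorphin on the kappa receptor, nociceptin on its own receptor, and substance P on the neurokinin receptor NK1. Opioid receptors couple to inhibitory G proteins, and the opioid system of the NAc is known for its part in reward and in alcohol drinking.

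The precursors differ in how many peptides a transcript encodes, which is shown here because Penk is the gene that differed between the strains. The coding stretches below are those of the opioid and tachykinin peptide cores in the canonical GENCODE vM39 transcripts, 5′ to 3′ on the coding strand, with GRCm39 coordinates. Capitals mark the codons of the peptide core, and the lower case letters on either side are the flanking codons.
Penk copy 1 (minus strand, chr4:4134328-4134354): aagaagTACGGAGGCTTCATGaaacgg
Penk copy 2 (minus strand, chr4:4134307-4134333): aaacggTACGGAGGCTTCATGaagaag
Penk copy 3 (minus strand, chr4:4134220-4134246): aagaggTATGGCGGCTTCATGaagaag
Penk copy 4 (minus strand, chr4:4134067-4134093): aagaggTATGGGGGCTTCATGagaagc
Penk copy 5 (minus strand, chr4:4133995-4134021): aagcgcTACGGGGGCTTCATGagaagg
Penk copy 6 (minus strand, chr4:4133935-4133961): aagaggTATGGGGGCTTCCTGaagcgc
Penk copy 7 (minus strand, chr4:4133842-4133868): aaaagaTACGGGGGCTTTATGcggttc
Pdyn copy 1 (minus strand, chr2:129530152-129530178): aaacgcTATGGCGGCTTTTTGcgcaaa
Pdyn copy 2 (minus strand, chr2:129530044-129530070): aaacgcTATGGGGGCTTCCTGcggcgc
Pdyn copy 3 (minus strand, chr2:129529987-129530013): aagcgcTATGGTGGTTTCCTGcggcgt
Pnoc, start of nociceptin (minus strand, chr14:65642324-65642347): aaaaggTTTGGGGGCTTCaccggg
Tac1, end of substance P (plus strand, chr6:7556744-7556770): cagcagTTCTTTGGATTAATGggcaag
Tac1, end of neurokinin A (plus strand, chr6:7559110-7559136): gattccTTTGTTGGACTAATGggcaaa

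The Penk precursor, of 268 residues, held 7 enkephalin cores, of which 6 ended in the methionine codon (Met-enkephalin) and 1 in a leucine codon (Leu-enkephalin). The Pdyn precursor, of 248 residues, held 3 cores, all of Leu-enkephalin, with which the dynorphins and neoendorphin begin. A pair of basic codons, the usual cutting site of the processing enzymes, stood before all 7 Penk cores and on both sides of 5 of them, and on both sides of all 3 Pdyn cores. The 6 Met-enkephalin copies were written in 5 distinct codon runs and the 4 Leu-enkephalin copies of both genes in 3. Nociceptin starts with phenylalanine where the enkephalins have tyrosine, and both Tac1 cores run into a glycine codon, the residue from which the amidated end of tachykinins is made. The Pnoc precursor has 187 residues and that of Tac1 115.

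The libraries held 96977262 to 116776714 counted reads each. B6 replicates 3 and 5 stood apart from the other mice of their strain in markers of cortex neurons, cells that lie next to the striatum and are not part of it. The summed normalized count of 8 such markers was 105313 to 106624 in these mice, 8790 to 18224 in the other 3 B6 mice and 24466 to 66429 in D2. Slc17a7, the vesicular glutamate transporter of cortex neurons, reached 83613 and 85477 there, against 6173 to 14039 in the other B6 mice. The 2 libraries were also the closest of any within a strain, with a mean chi-square per gene of 4.89 against 17.5 for the next pair, a value still above the 1 that sampling noise gives, and they were kept as separate mice. These mice also lay outside the range of the other 3 B6 mice in further lists. Their sums were lower for patch markers (37582 to 37797 against 58909 to 63053), for interneuron markers (51970 to 52102 against 57277 to 62349) and for septum and hypothalamus markers (4939 to 5023 against 6917 to 8301), and higher for oligodendrocyte markers (624511 to 628818 against 429973 to 513710). Direct pathway marker sums were lower as well (39949.1 to 40162.8 against 48038.5 to 51598.3), as were those of projection neuron markers (533256 to 536038 against 555160 to 631103). Indirect pathway marker sums lay just below those of the other 3 (51394 to 51990 against 52349 to 60344). Other lists were higher, such as matrix markers (136254 to 138309 against 109576 to 120903). Among these Sv2b varied most within B6, from 14884.5 to 48011.8, with an SD of 17181 against 531 to 2779 for the other matrix markers. The higher matrix sum is thus not a trait of the whole list. Defining striatal genes were still abundant in every mouse, with 102543 to 154713 normalized counts of Ppp1r1b (DARPP-32) and 20406 to 26662 of Drd1.

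Per length, Penk was the most abundant of the 10 genes in both strains, at 312 ± 57.8 RPKM (reads per kilobase of exon, scaled to library size) in B6 and 217 ± 23.9 in D2 (mean ± SD, n = 5 each). Tac1 and Pdyn followed at 42.4 each in B6, with Pdyn at 42.7 in D2, and their ranges overlapped in both strains. The receptors lay lower, in the order Oprl1, Oprk1, Oprd1, Tacr1, Tacr3 in both strains, from 8.05 to 2.31 in B6 and from 8.65 to 2.23 in D2. Pnoc (1.48 in B6, 1.64 in D2) and Oprm1 (1.12 and 1.21) came last and overlapped each other. Neighbors in this order whose ranges did not overlap were Penk and the gene after it and the third peptide gene and Oprl1 in both strains, Oprd1 and Tacr1 in B6, and Oprl1 and Oprk1 as well as Tacr1 and Tacr3 in D2. The place of Oprm1 rested on gene length, as did some others. With the canonical transcript length of each gene in place of all its annotated exons, Oprm1 stood at 6.61 in B6 and 7.14 in D2. Its rank was then 6 of 10 in both strains. On this scale Tacr1 stood above Oprd1 in D2 (ranks 7 and 8) and Pdyn above Tac1 in B6 (ranks 2 and 3). The counts were unchanged, so any reads from exons outside the canonical transcripts were still included.

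**Figure D1:**
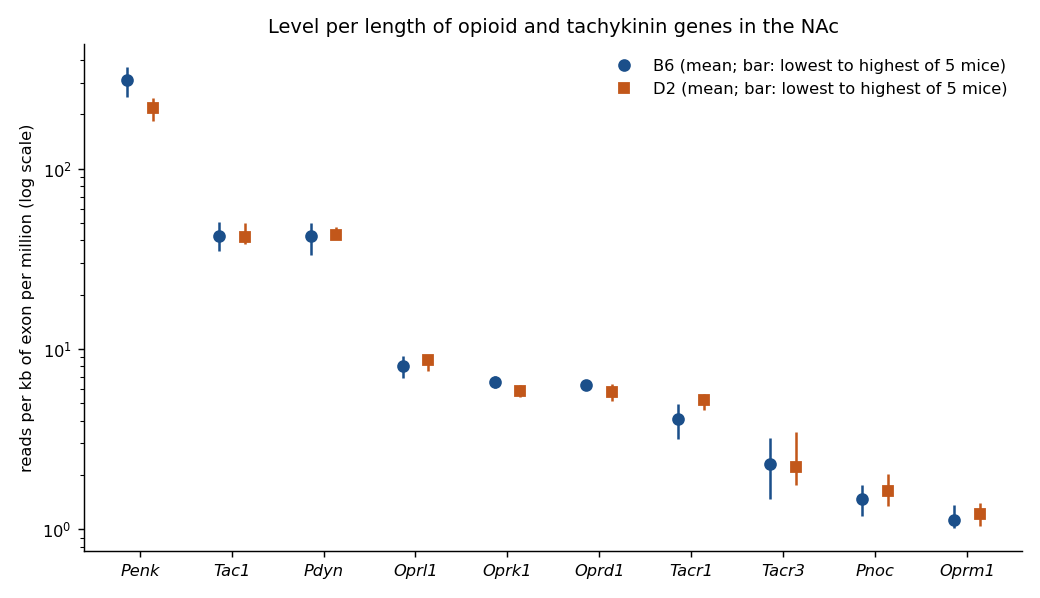
Level per length of the 10 genes in the NAc, in RPKM on a log scale, with genes ordered by the B6 mean. Symbols are means and bars run from the lowest to the highest of 5 mice, and Penk lies above Tac1 and Pdyn, which lie above all receptors and Pnoc.

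Penk, on GRCm39 chr4:4132722-4141856 (minus strand), was the only gene of the 10 that passed the threshold between the strains. Its normalized counts were 125309, 135662, 94205, 137996 and 94214 in B6 replicates 1 to 5 and 86781, 77325, 83311, 68930 and 92322 in D2 replicates 1 to 5. The groups did not overlap, although the lowest B6 mice, replicates 3 and 5, stood only just above the highest D2 mouse. B6 averaged 117477 ± 21770 and D2 81734 ± 8992 (SD, 5 mice each). Penk in D2 was thus 0.696 times that in B6, a log2 fold change (D2 minus B6) of -0.52 (SE 0.118, 95% interval -0.78 to -0.27, edgeR quasi-likelihood test, Benjamini-Hochberg adjusted p = 0.0074). Reads of Penk and of the antisense RNA A830012C17Rik, with which it shares 390 bp of exon, cannot be told apart without strand, but the latter had a median of 29 counts.

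The 1 of 10 genes called compares with a background of 18.3% of 29883 genes called, with 9.83% called lower in D2 and with 16.0% whose groups did not overlap. The share of these genes that differed was thus not above that of genes in general. Besides Penk, Oprk1 and Tacr1 had an unadjusted p under 0.05 (edgeR). The share of all genes at that looser threshold was not counted here, but it is at least the 18.3% called after adjustment. In this bulk tissue fewer cells of a type and less RNA per cell cannot be told apart. All reads were aligned to the B6 genome, and whether D2 reads were lost at sites that differ between the strains was not tested.

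**Figure D2:**
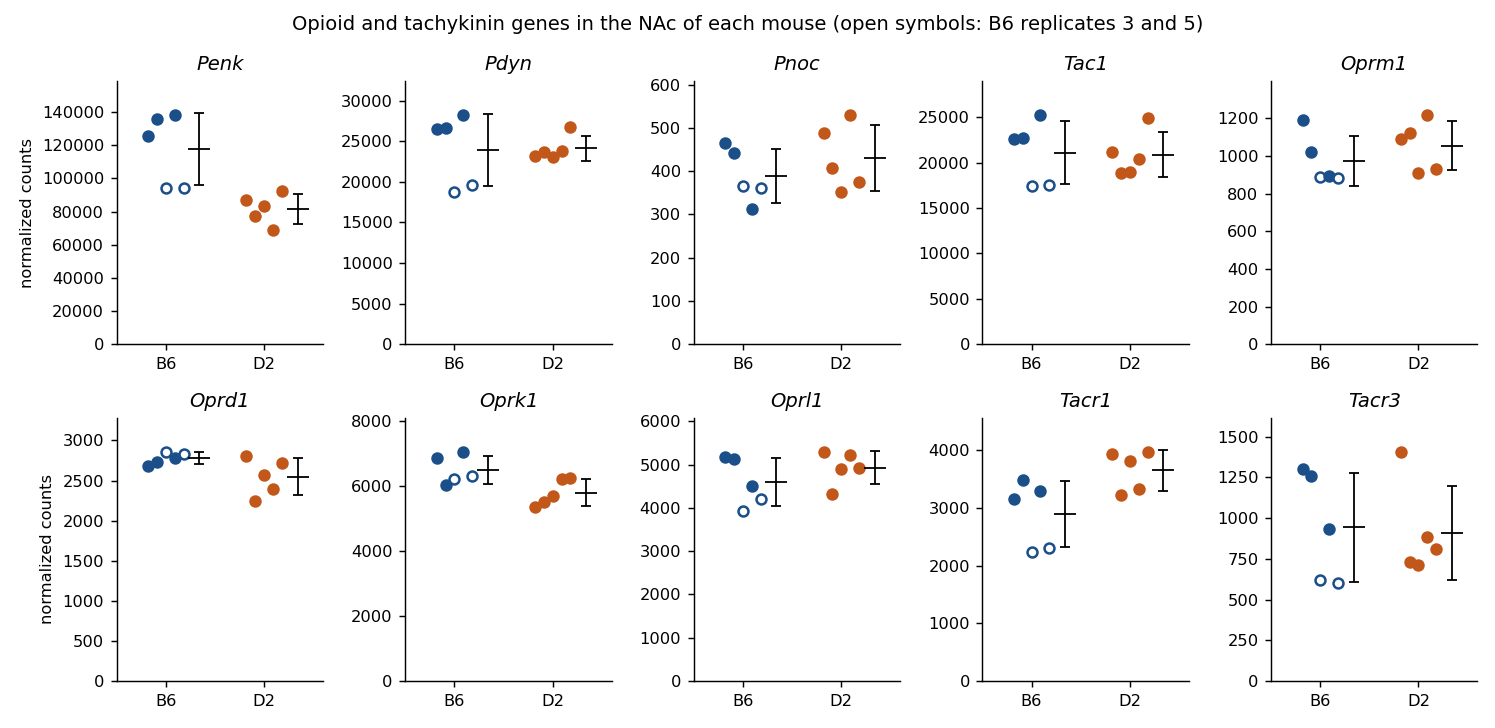
Normalized counts of the 10 genes in each mouse, 1 panel per gene with its own axis from 0, and beside each group the mean with its SD (n = 5). Penk is the gene whose B6 and D2 points do not overlap. The open symbols, B6 replicates 3 and 5, lie lowest of the B6 mice for Penk, Pdyn, Tac1, Oprl1, Tacr1 and Tacr3, and by a small margin for Oprm1.

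Pdyn, the dynorphin precursor (chr2:129528469-129541945, minus strand), had 26529, 26679, 18690, 28186 and 19634 normalized counts in B6 replicates 1 to 5 and 23240, 23722, 23078, 23828 and 26754 in D2. The D2 values lay inside the B6 range, and all were above B6 replicates 3 and 5. The means were 23944 ± 4425 and 24124 ± 1503, and the log2 fold change was 0.01 (95% interval -0.22 to 0.24, edgeR adjusted p = 0.963). The coefficient of variation was 18.5% in B6 and 6.23% in D2.

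Tac1, the precursor of substance P and neurokinin A (chr6:7554120-7565834, plus strand), had 22639, 22711, 17410, 25205 and 17504 normalized counts in B6 and 21167, 18898, 18981, 20390 and 24911 in D2. The groups overlapped over most of their range, and again B6 replicates 3 and 5 were the lowest of all mice. The log2 fold change was -0.02 (95% interval -0.25 to 0.22, edgeR adjusted p = 0.953).

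Pnoc, the nociceptin precursor (chr14:65638122-65663196, minus strand), was the scarcest peptide gene, with 465, 442, 366, 312 and 360 normalized counts in B6 and 488, 407, 351, 529 and 375 in D2. The groups overlapped, and B6 replicates 3 and 5 lay in the middle of their strain. The log2 fold change was 0.15 (95% interval -0.15 to 0.44, edgeR adjusted p = 0.546), an interval that still holds a difference as large as 0.44.

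Oprk1, the kappa receptor for dynorphin (chr1:5658667-5676375, plus strand), had 6863, 6023, 6222, 7036 and 6291 normalized counts in B6 and 5352, 5495, 5679, 6198 and 6234 in D2. Only the 2 highest D2 mice reached into the B6 range. The mean was 6487 ± 438 in B6 and 5792 ± 404 in D2, and the log2 fold change of -0.16 (SE 0.056, 95% interval -0.29 to -0.04) missed the threshold (edgeR adjusted p = 0.0633). It passed under 6 of 22 alternatives, with adjusted p between 0.0433 and 0.993 over all of them.

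Oprd1, the delta receptor for enkephalin (chr4:131838037-131871842, minus strand), had 2678, 2727, 2855, 2785 and 2837 normalized counts in B6 and 2806, 2247, 2570, 2390 and 2719 in D2. The B6 mice lay within a narrow band that 2 of the D2 mice reached. The coefficient of variation was 2.68% in B6 and 9.05% in D2, and the log2 fold change was -0.12 (95% interval -0.25 to 0.0008, edgeR adjusted p = 0.173). B6 replicates 3 and 5 were not low for this receptor, with 1.04 times the mean of the other B6 mice.

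Oprm1, the mu receptor and the main target of opioid drugs (chr10:6708506-6988198, plus strand), had 1190, 1023, 886, 893 and 884 normalized counts in B6 and 1092, 1121, 911, 1216 and 929 in D2. The groups overlapped, with a log2 fold change of 0.11 (95% interval -0.11 to 0.34, edgeR adjusted p = 0.541). It shares 96 bp of exon with the antisense gene Ipcef1, which had a median of 4043 counts, so part of its reads is uncertain where the strand was not used.

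Oprl1, the nociceptin receptor (chr2:181356605-181363728, plus strand), had 5188, 5136, 3937, 4503 and 4198 normalized counts in B6 and 5291, 4323, 4892, 5221 and 4926 in D2. The lowest values were again those of B6 replicates 3 and 5. The log2 fold change was 0.10 (95% interval -0.07 to 0.28, edgeR adjusted p = 0.451).

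Tacr1, the NK1 receptor for substance P (chr6:82379278-82537085, plus strand), had 3154, 3480, 2239, 3290 and 2308 normalized counts in B6 and 3944, 3219, 3810, 3329 and 3969 in D2. B6 replicates 3 and 5 lay well below every other mouse, and the remaining B6 mice overlapped the lower D2 mice. The mean was 2894 ± 579 in B6 and 3654 ± 354 in D2, with a log2 fold change of 0.34 (SE 0.122, 95% interval 0.07 to 0.60, edgeR adjusted p = 0.0782). DESeq2, an alternative test on the same counts that called 21.5% of 28718 genes, called Tacr1 (adjusted p = 0.0347) besides Penk (adjusted p = 0.000175).

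Tacr3, the NK3 receptor for neurokinin B (chr3:134534755-134640340, plus strand), varied most, with 1303, 1261, 620, 933 and 599 normalized counts in B6 and 1406, 729, 714, 886 and 808 in D2. Its coefficient of variation was 35.7% in B6 and 31.5% in D2. The log2 fold change was -0.05 with a 95% interval from -0.59 to 0.48 (edgeR adjusted p = 0.923), so that a difference of the size seen for Penk was not detectable at this spread.

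B6 replicates 3 and 5 stood apart in cortex, patch, interneuron, septum and hypothalamus and oligodendrocyte markers. Their sums of direct pathway, indirect pathway and projection neuron markers were also below those of the other 3 B6 mice. These 2 mice also had the lowest levels within B6 of several of the 10 genes. The part of each marker list in this was not tested. Relative to the mean of the other 3 B6 mice they had 0.708 times the Penk, 0.706 times the Pdyn, 0.742 times the Tac1, 0.687 times the Tacr1 and 0.523 times the Tacr3. Oprl1 stood at 0.823, Oprm1 at 0.855, Pnoc at 0.893 and Oprk1 at 0.942. Without these 2 mice, an alternative chosen after seeing the data under which 19.2% of all genes were called, 3 of the 10 genes passed (edgeR). Penk was then at -0.70 (adjusted p = 3.1e-05), Oprk1 at -0.20 (adjusted p = 0.0438) and Pdyn, which turned in sign, at -0.17 (adjusted p = 0.0275). Tac1 stood at -0.17 (adjusted p = 0.166) and Tacr1 at 0.14 (adjusted p = 0.215). Cortex marker sums in that fit were 8790 to 18224 in the 3 B6 mice and 24466 to 66429 in D2, with no overlap. In it 7 of the 8 cortex markers were called higher in D2, so strain and cortex marker level cannot be told apart there.

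With the cortex marker level of each library as a covariate, a fit in which 26.1% of all genes were called, 4 of the 10 genes passed (edgeR). Penk remained lower in D2 (log2 fold change -0.43, adjusted p = 7.94e-05), as did Oprk1 (-0.16, adjusted p = 0.0464). Tacr1 (0.44, adjusted p = 1.63e-05) and Oprl1 (0.16, adjusted p = 0.021) were higher in D2. Pdyn and Tac1 did not pass and stood at 0.10 and 0.06. Pdyn thus had opposite signs with the covariate and without the 2 mice.

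**Figure D3:**
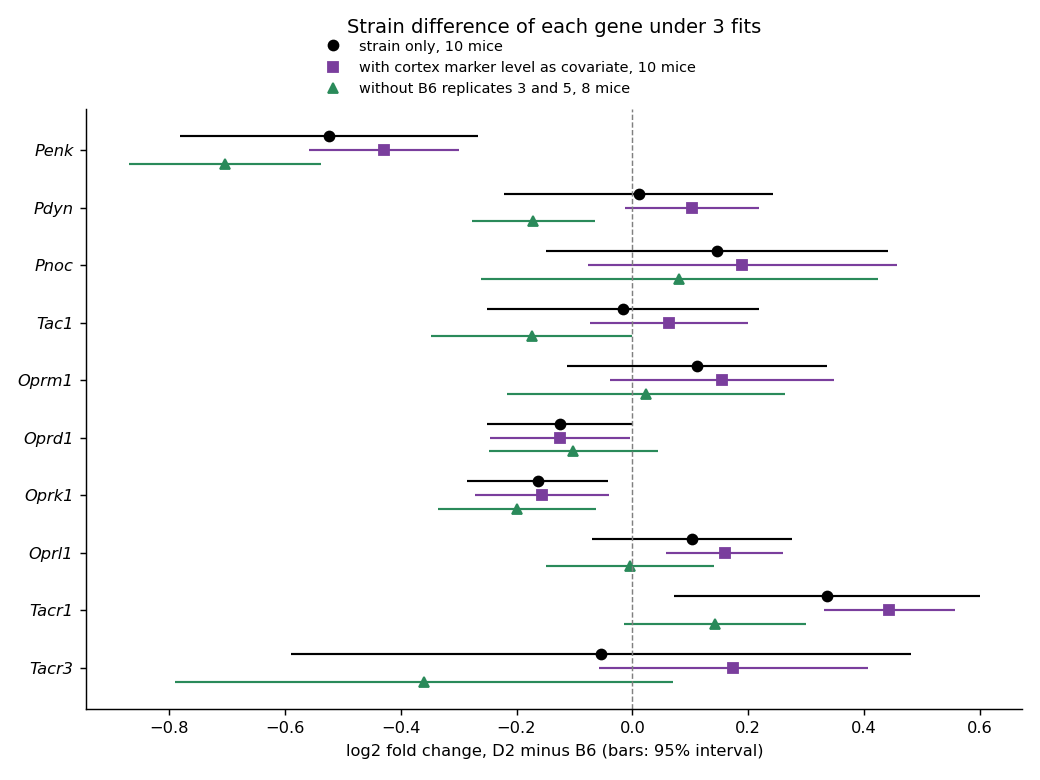
Log2 fold change (D2 minus B6) of each gene with its 95% interval under 3 fits, those with the strain alone, with the cortex marker level as a covariate, and without B6 replicates 3 and 5. The Penk and Oprk1 intervals lie below 0 in all 3 fits, although Oprk1 did not pass the adjusted threshold with the strain alone. Pdyn, Tac1, Oprl1 and Tacr3 move across 0 between fits.

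**Figure D4:**
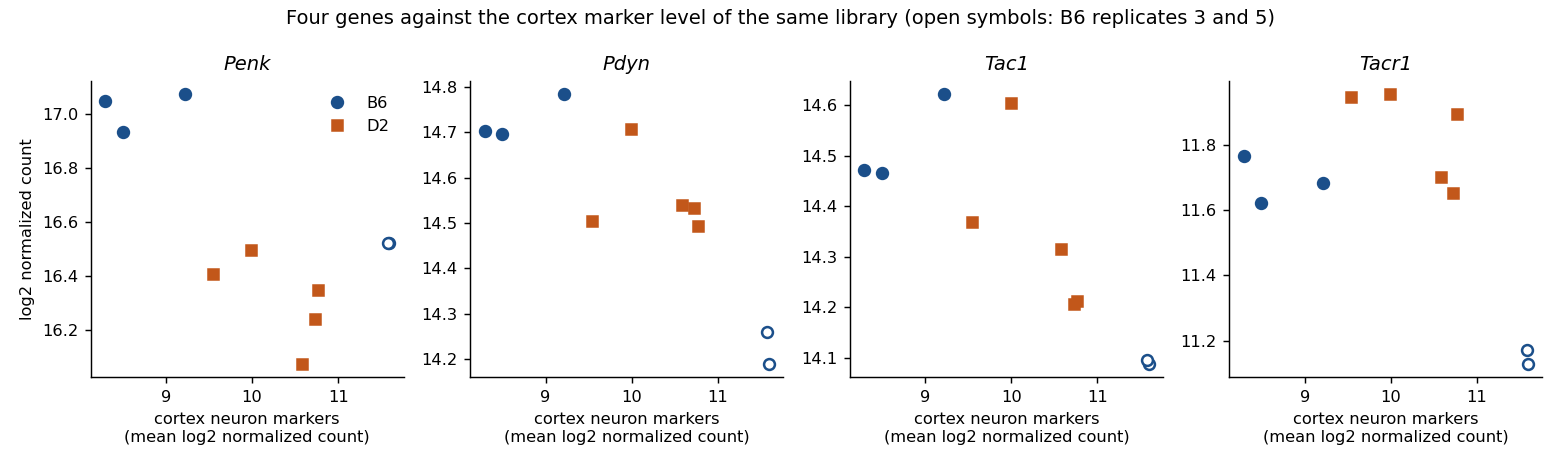
Log2 normalized count of Penk, Pdyn, Tac1 and Tacr1 in each mouse against the mean log2 normalized count of 8 cortex neuron markers in the same library. B6 replicates 3 and 5 (open symbols) have the highest marker level and the lowest Pdyn, Tac1 and Tacr1 of all 10 mice, and for Penk they lie just above the D2 mice.

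Because the peptide genes of a library share its scaling, ratios between them were compared as well. For each Penk count B6 mice had 0.204 Pdyn counts and D2 mice 0.296. The log2 ratio of Pdyn to Penk was -2.24, -2.35, -2.33, -2.29 and -2.26 in B6 and -1.90, -1.71, -1.85, -1.53 and -1.79 in D2. All 5 D2 mice lay above all 5 B6 mice, and replicates 3 and 5 were like the rest of their strain. The difference of 0.54 had a two-sided exact permutation p of 0.0079, the smallest that the assignments of 5 and 5 mice allow, and an adjusted p of 0.0238 over 6 ratios. The ratio of Tac1 to Penk went the same way, from 0.180 to 0.255, a log2 difference of 0.50 (exact permutation p = 0.0079, adjusted p = 0.0238), with no overlap either. The ratio of Pdyn to Tac1 was 1.13 in B6 and 1.16 in D2, a log2 difference of 0.04 (exact permutation p = 0.468).

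Over all 10 mice, those with more of any of Penk, Pdyn and Tac1 than their strain mean had more of the others. After the strain mean was removed, Pearson's r over the 10 mice was 0.882 for Penk and Pdyn (Spearman's rho 0.879, permutation p = 0.00063 for r and 0.00148 for rho, adjusted over 6 pairs to 0.0019 and 0.003). It was 0.869 for Penk and Tac1 (rho 0.952, adjusted permutation p = 0.0035 for r and 0.00096 for rho) and 0.930 for Pdyn and Tac1 (rho 0.903, adjusted permutation p = 0.0014 for r and 0.002 for rho). Without the 2 mice farthest from the median of the gene named first, strain means unchanged, r was 0.729, 0.735 and 0.891. For Pdyn and Tac1 these were B6 replicates 3 and 4, and for both Penk pairs B6 replicates 3 and 5. In the Penk pairs the other B6 mice all stayed above the unchanged mean, so those r values are not a separate check. B6 replicates 3 and 5 carried much of the correlations. Over the 8 other mice, centered again, r was 0.487, 0.596 and 0.897 (adjusted permutation p = 0.356, 0.294 and 0.0506). Spearman's rho was then 0.143, 0.619 and 0.595. The relation to Penk thus rested on B6 replicates 3 and 5. Pnoc did not follow the other peptide genes, with r of -0.10, 0.075 and 0.029 to Penk, Pdyn and Tac1.

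The genes most like each member were sought among the members and 131 listed genes, 136 compared for each, by Pearson's r of log2 normalized counts with the strain mean removed, over 10 mice, with all genes of a mouse measured in the same library. The gene most like Penk was Tacr1 (r = 0.957, and 0.844 without B6 replicates 3 and 5), followed by Otof (0.922 and 0.696). Tac1 was most like Chrm4, the muscarinic receptor of direct pathway neurons (0.978 and 0.941), and Pdyn was most like Rgs9, a striatal regulator of G protein signaling (0.960 and 0.908). Tac1 was second for Pdyn (0.930) and Rgs9 second for Tac1 (0.957). Pnoc and Oprm1 stood near each other (0.879 and 0.895), with Furin next for Pnoc (0.835) and the astrocyte glutamate transporter Slc1a3 closer still to Oprm1 (0.926).

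Among the other receptors, Tacr1 was most like Otof (0.981) and Chat, the acetylcholine-making enzyme of cholinergic interneurons (0.965). Tacr3 was most like Lhx6 (0.969) and Nos1 (0.954), genes of other interneurons. Oprl1 stood with Nkx2-1 (0.912) and Lhx6 (0.911), both of which encode transcription factors, Nkx2-1 from the list of septum and hypothalamus markers and Lhx6 from that of interneurons. Oprd1 stood with the interneuron calcium-binding protein Pvalb (0.802) and with Prep (0.722), and Oprk1 with Tshz1 (0.727) and next with Sp9, a transcription factor gene of indirect pathway neurons.

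Markers of the neurons that make enkephalin were lower in D2 together with Penk. Of 7 indirect pathway markers 4 were called lower, namely the dopamine receptor gene Drd2 (log2 fold change -0.46, edgeR adjusted p = 8.6e-06), the adenosine receptor gene Adora2a (-0.39, 0.0056) and the orphan receptor genes Gpr6 (-0.42, 3.6e-04) and Gpr52 (-0.51, 3.9e-06). Ttc12 was called higher (0.94, edgeR adjusted p = 4.9e-06), and the median of the list was -0.39 against 0.0036 over all 29883 genes. The summed list ran from 51394 to 60344 normalized counts in B6 and from 39113 to 45615 in D2, with no overlap. Relative to the mean of these markers Penk was 0.34 lower in D2 on the log2 scale, which did not pass (exact permutation p = 0.063, adjusted p = 0.127). Ttc12 weighs in that mean against the other markers, and relative to the mean of the other 6, a choice made after seeing the data, the difference was -0.16 (exact permutation p = 0.270, adjusted p = 0.405). Without B6 replicates 3 and 5 the difference was -0.525 with Ttc12 (exact permutation test, adjusted p = 0.0357) and -0.34 without it (exact permutation test, adjusted p = 0.0536). The 4 markers called lower stood between -0.39 and -0.51, against -0.52 for Penk itself. Whether the lower markers and the lower Penk have the same source was not tested.

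Of the 7 markers of direct pathway neurons, the cells of Pdyn and Tac1, Eya1 was called higher (0.27, edgeR adjusted p = 0.032) and none lower, with a list median of 0.05. The gene of the dopamine receptor Drd1 stood at -0.06 (edgeR adjusted p = 0.670). Relative to the mean of this list Pdyn differed by -0.05 and Tac1 by -0.09 on the log2 scale (exact permutation p = 0.421 and 0.190, adjusted p = 0.468 and 0.286).

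Of 8 markers shared by both kinds of striatal projection neuron, 6 were called lower in D2 and none higher, with a median of -0.26. Those called included the phosphodiesterase gene Pde10a (-0.35, edgeR adjusted p = 9.7e-04) and the adenylyl cyclase gene Adcy5 (-0.30, 0.0027). The summed list was 533256 to 631103 in B6 and 434154 to 515238 in D2, with no overlap. With the level of this list as a covariate, a fit in which 7.09% of all genes were called, Penk was at -0.04 (SE 0.175, edgeR adjusted p = 0.927) and Tacr1 was the gene of the 10 that passed (0.81, adjusted p = 0.0239). Because the list separates the strains, it and the strain cannot be told apart in that fit.

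In the remaining neuron lists few genes were called. Of the 7 patch markers, Lypd1 was called lower (-0.48, edgeR adjusted p = 0.030). Of the 5 matrix markers this was Id4 (-0.49, edgeR adjusted p = 0.0011), and of the 11 interneuron markers Th (-0.30, edgeR adjusted p = 0.030). No gene of these 3 lists was called higher with the strain alone, and their medians were -0.06, -0.13 and 0.18. With the cortex covariate 6 of the 11 interneuron markers and 2 of the 7 patch markers were called higher in D2, and 1 and 2 lower. Without B6 replicates 3 and 5, 1 interneuron marker was called higher and 2 lower, and 3 patch markers lower. None of the 10 other striatal neuropeptide genes was called in the edgeR fit, with a median of -0.09, but 2 were called higher with the cortex covariate, and 4 higher and 3 lower without B6 replicates 3 and 5. Among them Nts, the neurotensin precursor, had 1520 and 1438 normalized counts in B6 replicates 3 and 5 against 3892 to 4741 in the other B6 mice.

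The enzymes and granule proteins that cut and pack the precursors held the largest difference of the related lists among abundant genes. Scg5, the 7B2 chaperone of the prohormone convertase PC2, had 13675 ± 807 normalized counts in B6 and 32445 ± 833 in D2 (log2 fold change 1.25, SE 0.042, edgeR adjusted p = 8.7e-10). Its lowest D2 mouse, 31404, lay above its highest B6 mouse, 15052. Pcsk2, which encodes PC2 itself, was lower in D2, with 37076 ± 4513 and 29366 ± 1666 (-0.34, edgeR adjusted p = 0.0063), as was Cpe, the carboxypeptidase that trims the basic residues (-0.23, edgeR adjusted p = 0.0016). These were 1 higher and 2 lower of 15, with a median of -0.02. The groups of Pcsk2 and of Cpe did not overlap.

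Among the 11 peptide-degrading enzymes, Dpp3, an enkephalin-cleaving peptidase, was called higher (0.18, edgeR adjusted p = 0.013) and none lower, with a median of 0.05. Mme, the neprilysin gene, stood at 0.19 (edgeR adjusted p = 0.316). Of the 6 other opioid and tachykinin genes, Tac2, the neurokinin B precursor, was called higher in D2 (584 ± 173 and 920 ± 168 normalized counts, log2 fold change 0.65, edgeR adjusted p = 0.031). Tacr2, the receptor of neurokinin A, was also called (edgeR adjusted p = 0.013) but at 6.51 ± 3.41 and 17.1 ± 3.71 normalized counts, below the minimum of 50 for named genes, and it is given here after its values were seen. The median of this list was 0.25.

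Of the 7 receptor kinases and arrestins, which switch off and internalize opioid receptors, 3 were called higher and 1 lower in D2, with a median of 0.07. Those called higher were Grk5 (0.28, edgeR adjusted p = 6.1e-04), Arrb2, which encodes beta-arrestin 2 (0.18, 0.0024), and Grk6 (0.11, 0.042). Arrb1 was called lower (-0.16, edgeR adjusted p = 0.012).

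**Figure D5:**
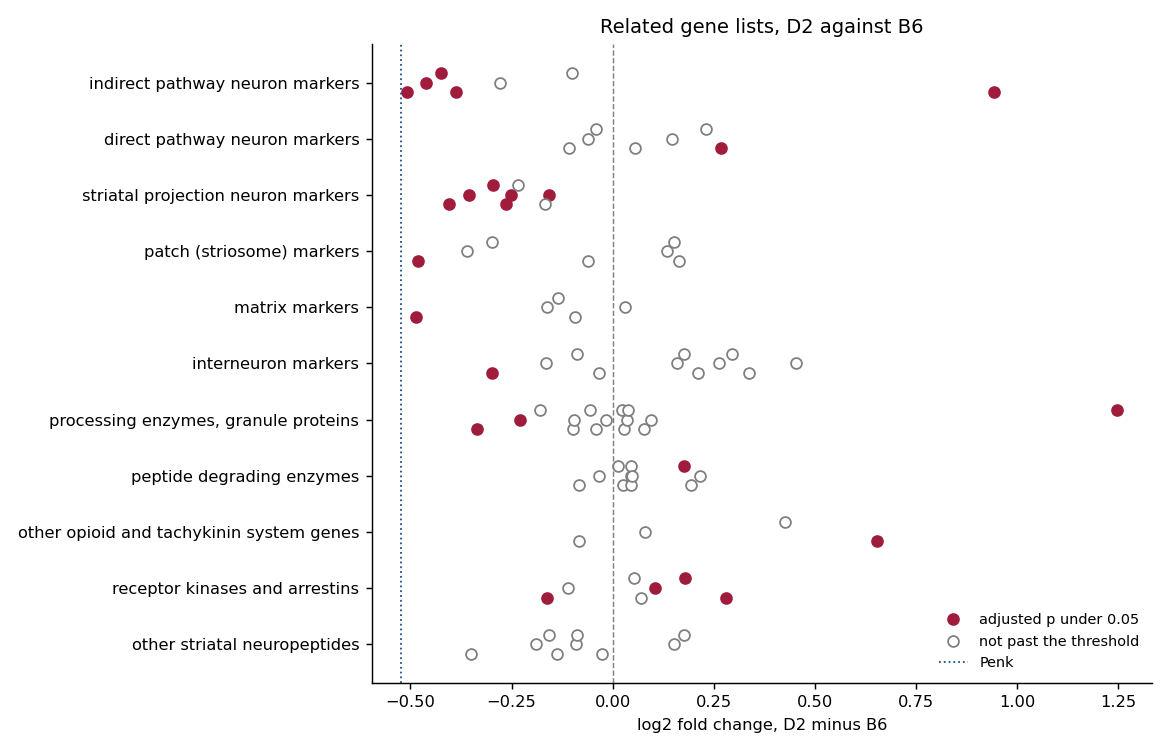
Log2 fold change (D2 minus B6) of each gene of 11 related lists with at least 50 mean normalized counts, 1 point per gene, filled where the edgeR adjusted p was under 0.05. Points are set apart vertically only to be seen, the dotted line marks Penk, and 4 indirect pathway markers and 6 projection neuron markers are filled on the lower side whereas Scg5 lies alone at 1.25.

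Among lists of other cells, none of the 8 cortex neuron markers was called in the edgeR fit, and Fezf2, for example, stood at -0.17 (edgeR adjusted p = 0.757). Of the 5 septum and hypothalamus markers measured, 1 was called higher (0.05 to 0.45, largest for Prlr). The astrocyte list had 1 higher and 2 lower of 5 (-0.24 to 0.32, largest for Gfap, which was not called). Of the oligodendrocyte markers 3 of 5 were called lower (-0.57 for Mobp to -0.28). The microglia list had 1 higher and 1 lower of 5 (-0.44 for C1qa to 0.26). None of the 5 endothelium markers was called (-0.43 for Cldn5 to -0.05). Of 6 ependyma and choroid plexus markers 1 was called lower, Folr1, at 0 to 0.94 normalized counts in D2 and 1.03 to 10.3 in B6, and the other 5 ran from -0.43 to 1.12. The part of these cells in the results for the 10 genes was not tested.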

How the data were processed

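RNA of the NAc of 10 mice was sequenced with 1 library per mouse. The authors trimmed reads with fastp, aligned both strains to GRCm39 (Ensembl) with STAR 2.7.10b, sorted them with SAMtools 1.6 and counted genes with featureCounts. The deposited table holds raw counts, from which genes of median 0 had been taken out by the authors (lowest median 0.5). The strand setting of the counting is not given in the sources used here. Of 29883 genes, 29519 matched the annotation used for coordinates and lengths (GENCODE vM39, a later release).

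Counts were fitted with edgeR 4.0.16 in R 4.3.3 (TMM, quasi-likelihood test, two-sided, no further filter, strain as the factor) and p-values were adjusted by Benjamini-Hochberg over the whole table, with a threshold of 0.05. Normalized counts are counts divided by TMM-scaled library size. Correlations used the log2 of normalized counts and ratios the log2 of raw counts, both with an offset of 0.5. RPKM values were computed here from counts, TMM-scaled library sizes and the union of annotated exons. Standard errors follow from the estimate and its F statistic. On simulated counts for 29883 genes with 200 changed by 1 on the log2 scale, D2 against B6, 192 were recovered, with 9 false calls. Two-sided exact permutation tests were used for ratios and correlations with permutation tests (100000 resamples).

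The 10 genes, 18 lists of 132 genes (131 in the table) and the tests were chosen with earlier results of these data known. From the pathway and striatal neuron lists, at most the 3 genes with the largest change per direction among those called, with a mean of at least 50 normalized counts, were named. From lists of other cells, the gene with the largest change was named. For each member the 2 genes most like it were named. Of the genes under this rule, 2 are not reported here by name. Alternatives were DESeq2 1.42.0, other scaling and filters, covariates, a replicate block, a stricter threshold and leaving out mice. Libraries held at least 96977262 counts, and for genes with few counts, such as Tacr2 and Folr1, counting error adds to the spread between mice.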

Additional observations from a re-analysis of the deposited data

Results flagged for a closer look

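Of 32 groups of 5 mice examined for a mouse far from the rest of its strain, by Dixon's ratio of its gap to the range of the group at the 95% level (0.71), 3 had such a mouse, and chance alone gives about 5% of groups. D2 replicate 5 had 26753.6 normalized counts of Pdyn, against 23077.7 to 23827.7 in the other D2 mice, and the gap was 0.796 of the range. D2 replicate 1 had 1406.5 normalized counts of Tacr3, against 714 to 886 in the others (0.751). B6 replicate 2 had a log2 ratio of Tac1 to Penk of -2.58, against -2.47 to -2.43 in the others (0.732), and was still on the B6 side of every D2 mouse.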

How the results depend on the processing

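The lower Penk in D2 passed under 21 of 22 alternatives (log2 fold change -0.70 to -0.04, adjusted p 3.1e-05 to 0.927) and missed with the striatal marker covariate (-0.0435). Of the 10 genes, 2 were called with DESeq2 and with edgeR's filter on low counts (filterByExpr), 4 with the cortex covariate, 3 without both B6 replicates 3 and 5, and 1 to 3 with any mouse left out (3 without B6 replicate 2, 2 without D2 replicate 4 or 5). Of all genes tested, 24.6% were called with that filter, 16.3%, 15.5% and 15.8% without these mice in turn, and 15.8% with the replicate block. Pdyn turned in sign without both B6 replicates 3 and 5 (-0.171). Of the related-list genes, 35 were called, against 65 with the cortex covariate, 59 without both B6 mice, 16 with the striatal covariate and 20 at an adjusted p of 0.01. Over all genes 5478 were called, against 2120 with the striatal covariate and 3415 at 0.01. The cause was not tested beyond the fewer mice or the stricter threshold that the alternatives set.

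Without both B6 mice the log2 ratio of Penk to indirect pathway markers differed by -0.525 with Ttc12 (exact permutation test, adjusted p = 0.0357). It differed by -0.343 without Ttc12 (exact permutation test, adjusted p = 0.0536). The correlations of Penk with Pdyn, Penk with Tac1 and Pdyn with Tac1 were then 0.487, 0.596 and 0.897, and none of these correlations passed. The deviations of same-numbered mice from their strain means correlated at 0.367, -0.402, 0.362, 0.0315 and -0.289 for numbers 1 to 5 (15388 genes). The sign was mixed, and whether the numbers mark a shared batch cannot be told from these values. With the replicate number as a block Penk stood at -0.51 (edgeR adjusted p = 0.0298), 1 of the 10 genes was called, and the ratios of Pdyn and Tac1 to Penk kept differences of 0.539 and 0.503 but an exact sign-flip p of 0.0625, the smallest that 5 pairs allow. For genes with few counts, depth limits what could be detected.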
